A study of Mus musculus with 3 samples.

Results

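The genes described here were 10 interferon-stimulated genes of the mouse, Ifit1, Ifit2, Ifit3, Isg15, Usp18, Oasl2, Rsad2, Rtp4, Ifitm3 and Stat2, out of 28676 genes in the count table. They were followed across marker-defined cell classes of the medial vestibular nucleus (MVN), a brainstem nucleus that receives the vestibular nerve. They were chosen for measured values in these same libraries, so their levels and their differences between libraries stand as a description, with no test. The tissue came from C57BL/6 mice (C57BL/6J in the study's methods) operated on at postnatal day 20 and taken 1 day later. In unilateral labyrinthectomy (UL) the right inner ear sense organs were destroyed. Per the study's methods, control mice had surgery that stopped at opening the bulla of the middle ear, although the treatment label names labyrinthectomy for all 3 samples. The 3 libraries were the MVN of control mice, the MVN on the operated side (ULI) and the MVN on the other side (ULC), and the last 2 came from the same mice. Tissue of 10 control mice and 11 UL mice was pooled, so each group was 1 library, and differences between mice, between dissections and between sequencing runs cannot be told apart from the group. The labels name BD Rhapsody as the platform, whereas the methods describe 10X and droplet capture.

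Interferons are secreted proteins that warn cells of viral nucleic acid and of tissue damage. Type I interferons bind a receptor found on nearly every cell, the receptor's kinases phosphorylate STAT2, and a complex that holds STAT2 and IRF9 binds the interferon-stimulated response element in promoters. In the brain, microglia, perivascular macrophages and endothelial cells are well known to respond, and a tonic low response is found in the absence of infection. Among the 10 genes, Ifit1, Ifit2 and Ifit3 encode proteins that bind viral RNA or each other, Isg15 encodes a ubiquitin-like modifier, and Usp18 removes that modifier and dampens receptor signalling. Oasl2 is a relative of the oligoadenylate synthetases, Rsad2 encodes viperin, an enzyme that makes a chain-terminating nucleotide, and Ifitm3 encodes a membrane protein that blocks the fusion of virus with endosomes. Rtp4 encodes a membrane-associated protein that is strongly induced by type I interferon, and Stat2 is part of the signalling complex itself.

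Promoter sequence was not used in choosing the genes, and the stretches that hold the response element are shown. The genes were taken as interferon-stimulated ones, which this element serves, so its presence is a description and no separate support. The motif searched was GAAA, any 2 bases and GAAA again, read on both strands, so that TTTC, any 2 bases and TTTC on the printed strand is the same motif. It was searched in RefSeq promoters (GRCm38.p6) from 250 bases before to 50 bases after each start, which were given for 8 of the 10 genes, with Usp18 and Rtp4 unmatched. The motif was present in 6 of these 8, against 1079 of 27025 genes with a promoter (3.99%) and 33 of 85 other genes of the interferon pathway (38.8%). Oasl2 and Ifit2 had no match in the window. Ifitm3 had its 2 matches after the start, with their last bases 11 and 28 bases past it. The other 5 are printed in the direction of transcription, with the motif in capitals.

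Isg15, chr4:156200850-156200921, minus strand: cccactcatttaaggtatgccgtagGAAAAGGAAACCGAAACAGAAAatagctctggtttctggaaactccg
Ifit1, chr19:34640760-34640838, plus strand: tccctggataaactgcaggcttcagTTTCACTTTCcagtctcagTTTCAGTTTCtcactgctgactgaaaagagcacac
Ifit3, chr19:34583348-34583441, plus strand: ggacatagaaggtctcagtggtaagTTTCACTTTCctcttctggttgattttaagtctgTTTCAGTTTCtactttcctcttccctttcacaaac
Rsad2, chr12:26456538-26456597, minus strand: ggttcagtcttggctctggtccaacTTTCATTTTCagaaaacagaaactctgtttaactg
Stat2, chr10:128270251-128270310, plus strand: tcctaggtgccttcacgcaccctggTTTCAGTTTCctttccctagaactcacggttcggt

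Distances to the start are counted from the last base of each copy. Isg15 carried 3 overlapping copies, at 69 to 57 bases before its start. Ifit1 carried copies 95 and 76 bases and Ifit3 copies 147 and 113 bases before the start, whereas Rsad2 and Stat2 carried 1 copy each, at 111 and 213 bases. A match describes letters in a window and does not show binding. Ifit2 (chr19:34550694-34576419), Ifit3 (chr19:34583531-34588731) and Ifit1 (chr19:34640871-34650009) lie in 1 region of the plus strand in the mm10 annotation, with Ifit3b and other genes between Ifit3 and Ifit1, and all 10 genes are annotated as protein coding.

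The libraries held 27019650 UMIs (control), 17428194 (ULI) and 12768983 (ULC), where a UMI is a counted RNA molecule. Barcodes with at least 200 genes were kept, which left 4607, 4813 and 4544 barcodes with a median of 3177, 2100 and 931 UMIs. Clustering gave 26 clusters, all but 2 of which were named from their markers, and the 9 classes with at least 30 barcodes in every library were compared. The barcodes carry running numbers rather than sequences, so barcodes shared between libraries could not be counted, and 0 barcodes had a profile identical to another. Levels are given in CPM, the UMIs of a gene per 1000000 UMIs of all barcodes of the class and library, with exact Poisson 95% intervals. Shares and ratios of counts carry exact binomial 95% intervals. These intervals cover counting error only and leave out that UMIs sat unevenly over barcodes. As a level of background, the barcodes left out for having under 200 genes had 27.9, 21.8 and 0 CPM of the 8 genes other than Ifitm3 and Stat2, from 5, 3 and 0 UMIs. The intervals were 9.06 to 65.1 CPM in control and 4.50 to 63.8 CPM in ULI, and the count of 0 in ULC has an upper limit of 14 CPM.

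Of the 9 classes compared, perivascular macrophages and endothelial cells had the highest levels in all 3 libraries. For the sum of the 8 genes, perivascular macrophages of the control library had 415 CPM (376 to 458), those of ULI 739 (674 to 808) and those of ULC 266 (218 to 321). Endothelial cells had 415 (372 to 461), 591 (504 to 690) and 218 (174 to 269). In each library the intervals of these 2 classes overlapped, and both lay above those of every other class compared. Control microglia had 39.4 CPM (34.2 to 45.0), ULI microglia 384 (359 to 411) and ULC microglia 69.3 (54.8 to 86.5). They were thus at place 7 of 9 classes in the control library and at place 3 in ULI.

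**Figure D1:**
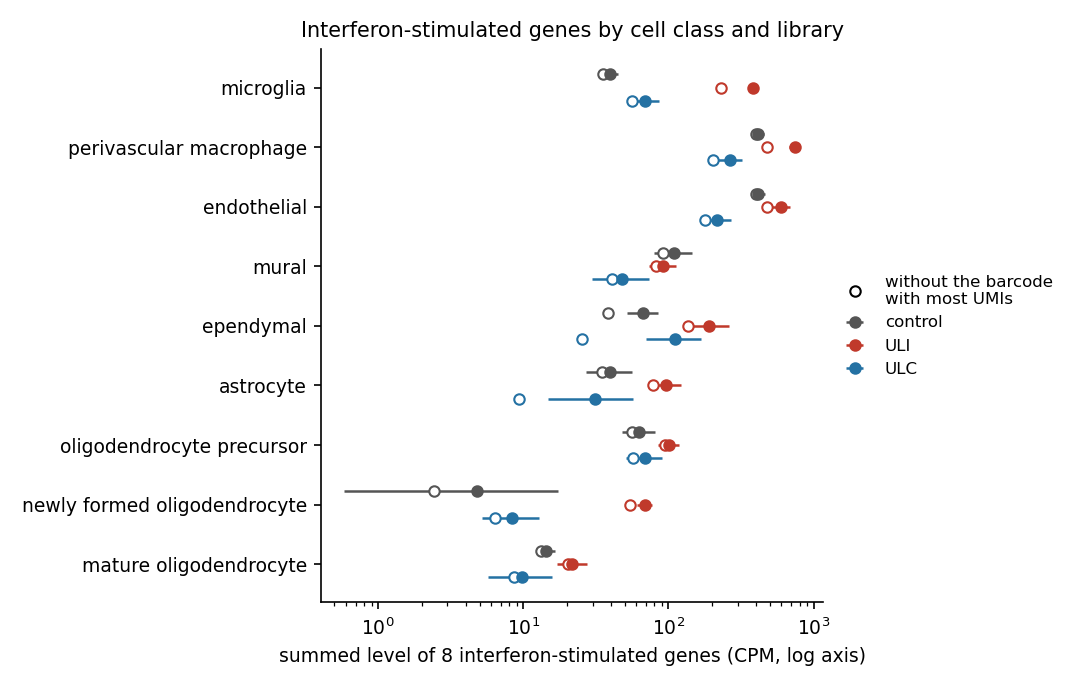
Summed level of the 8 genes (Ifit1, Ifit2, Ifit3, Isg15, Usp18, Oasl2, Rsad2 and Rtp4) in CPM on a log axis, by cell class, with 1 point per library and exact Poisson 95% intervals as bars; open points give the level without the barcode that holds the most of these UMIs. Microglia lie between 39.4 (control) and 384 (ULI) and newly formed oligodendrocytes between 4.81 (control) and 68.4 (ULI), and perivascular macrophages and endothelial cells sit highest in each library.

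The remaining classes were lower. The 8-gene level was 108, 91.5 and 47.8 CPM in mural cells (control, ULI and ULC), 66.7, 191 and 111 in ependymal cells, 39.7, 95.7 and 31.0 in astrocytes and 62.6, 100 and 68.8 in oligodendrocyte precursors. Newly formed oligodendrocytes had 4.81, 68.4 and 8.36 CPM and mature oligodendrocytes 14.4, 21.7 and 9.80. Mature oligodendrocytes were thus no higher than the left-out barcodes in control and ULI and within the upper limit of those in ULC, and newly formed oligodendrocytes were so in control and ULC. Control microglia (39.4), astrocytes (39.7) and oligodendrocyte precursors (62.6) also lay under the upper limit of the left-out control barcodes, 65.1 CPM.

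The class names were checked against markers. The 8 microglial markers, among them P2ry12 and Cx3cr1, were present in microglia of every library, with P2ry12 at 5726, 2992 and 2315 CPM. Mrc1, the mannose receptor that marks perivascular macrophages, was at 6790, 8998 and 6929 CPM in that class, and Flt1 was at 4950, 4836 and 4183 CPM in endothelial cells. Different clusters held most microglia of each library. Cluster 0, led by P2ry12 and Slc2a5, held 1538 of 1715 control barcodes. Cluster 9, led by Lpl, Tnf and Cxcl10, held 485 of 907 ULI barcodes, and cluster 14, led by Coro1a and C1qa, held 404 of 482 ULC barcodes. Likewise, most newly formed oligodendrocytes came from cluster 12 in control and ULI and from cluster 3 in ULC, and most mature ones from clusters 11, 10 and 8.

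Among the RNA-binding genes, Ifit1 was nearly absent from control microglia, with 4 UMIs in 4 of 1715 barcodes (0.75 CPM, 0.20 to 1.91). ULI microglia had 143 UMIs in 14 of 907 barcodes (65.4 CPM, 55.1 to 77.1), and ULC microglia had 2 UMIs in 2 of 482 (1.78 CPM, 0.22 to 6.42). ULI thus stood far above both other libraries, at a log2 ratio to control of 6.45 (5.07 to 8.35). In perivascular macrophages Ifit1 was at 16.6, 101 and 21.9 CPM, but 54 of the 65 ULI UMIs came from 1 barcode. Their log2 ratio of ULI to control was 2.60 (1.79 to 3.49). Endothelial cells held most of the Ifit1 of the control library, 58 of 97 UMIs, in 33 of 163 barcodes, none with more than 4 UMIs. Their levels of 70.6, 62.0 and 35.4 CPM overlapped in their intervals between control and ULI.

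Ifit2 differed from Ifit1 in having a level in oligodendrocyte precursors. Control microglia had Ifit2 at 4.66 CPM (3.02 to 6.88), ULI microglia at 54.0 (44.7 to 64.7) and ULC microglia at 3.55 (0.97 to 9.10), and the log2 ratio of ULI to control was 3.53 (2.90 to 4.22). In endothelial cells it was at 2.43 CPM in control from 2 UMIs, at 94.9 in ULI from 26 UMIs and at 0 UMIs in ULC. The log2 ratio of ULI to control was 5.29 (3.29 to 8.41), but all 26 ULI UMIs came from 3 barcodes, of which 1 held 13. Oligodendrocyte precursors, in contrast, had Ifit2 at 49.3 CPM (36.3 to 65.3), 67.9 (55.0 to 82.9) and 48.5 (34.0 to 67.2), with overlapping intervals in the 3 libraries. Its 96 UMIs in ULI precursors were spread over 55 barcodes with at most 7 in any, and they were most of the 142 UMIs of the 8 genes there. In likeness over the 27 combinations of class and library, Ifit2 had the lowest Pearson r with the mean pattern of the 10 genes, 0.40, whereas the other 9 lay between 0.59 and 0.91. These points share libraries and depth, so the values are a description.

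Ifit3 was at 3.73 CPM (2.28 to 5.76), 33.4 (26.2 to 42.0) and 8.89 (4.26 to 16.3) in microglia, a log2 ratio of 3.16 (2.43 to 3.95) for ULI. Perivascular macrophages had 68.5, 85.2 and 31.7 CPM, so ULI and control overlapped and ULC was lower, at -1.11 (-2.10 to -0.24). In newly formed oligodendrocytes Ifit3 was absent from control and ULC (0 UMIs each) and had 131 UMIs in 14 of 800 ULI barcodes, 28.8 CPM (24.1 to 34.2). With the control count set to a floor of 3 UMIs the ratio was 3.99-fold, a value that rests on this floor. Control had 42 barcodes of this class, and 1 ULI barcode held 44 of the 131 UMIs. Of the 60-base windows of the Ifit3 transcript, 47.0% are also found in Ifit3b and 6.31% of those of Ifit1 in Ifit1bl2, so counts of these genes may be split or shared with their copies.

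Of the ISG15 system, Isg15 in microglia was at 9.89 CPM (7.41 to 12.9), 21.5 (15.8 to 28.6) and 6.22 (2.50 to 12.8), so ULI stood apart from both, with a log2 ratio of 1.12 (0.52 to 1.71) to control. Control endothelial cells had 60.8 CPM, spread over 31 of 163 barcodes with at most 5 UMIs, beside 43.8 in ULI and 58.2 in ULC, and these intervals overlapped. In perivascular macrophages Isg15 was at 32.2, 29.4 and 9.75 CPM. In astrocytes it had 0 UMIs in all 3 libraries, which at 3 UMIs per library allows up to 3.72, 4.63 and 9.31 CPM. Within microglia Usp18 was at 2.05 (1.02 to 3.67), 12.8 (8.51 to 18.5) and 5.33 CPM (1.96 to 11.6). ULI lay above control, at a log2 ratio of 2.64 (1.59 to 3.80), but its interval overlapped that of ULC. Usp18 reached 42.6 CPM in control endothelial cells. It overlaps an antisense lincRNA, Gm44148, and whether the counting used strand is not given in the sources used here.

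Rsad2 showed the widest difference. Its 3 UMIs in control microglia (0.56 CPM, 0.12 to 1.64) stood beside 316 in ULI (145 CPM, 129 to 161) and 4 in ULC (3.55 CPM, 0.97 to 9.10). The log2 ratio of ULI to control was 8.01 (6.45 to 10.3). A microglial barcode with 236 Rsad2 UMIs held 46.6% of the Rsad2 of the whole ULI library, in which 2 barcodes held more than all others together. Perivascular macrophages had Rsad2 at 38.4, 152 and 58.5 CPM, and 78 of the 98 ULI UMIs came from the same barcode that held most of the Ifit1. Endothelial cells had 29.2 (18.7 to 43.5), 146 (104 to 199) and 40.5 CPM (23.1 to 65.7), from 11, 8 and 3 barcodes. Their log2 ratio for ULI was 2.32, and it was 1.98 without the top barcodes.

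Oasl2 and Rtp4 were broadly spread. Oasl2 in perivascular macrophages was at 99.7 (80.7 to 122), 122 (96.9 to 153) and 85.3 CPM (59.4 to 119), with overlapping intervals, in 49, 36 and 13 barcodes. In microglia it was at 6.72 (4.70 to 9.30), 21.0 (15.4 to 28.1) and 22.2 (14.4 to 32.8), so ULI and ULC lay together above control, at log2 ratios of 1.65 and 1.73. It was also 6.29-fold higher in ULI than in control ependymal cells (100 against 16.0 CPM), where 10 of 20 ULI UMIs and 11 of 17 control UMIs came from 1 barcode each. Rtp4 was at 118, 183 and 39.0 CPM in perivascular macrophages and at 122, 102 and 25.3 in endothelial cells, so ULC was the low library in both classes, at log2 ratios of -1.60 (-2.46 to -0.84) and -2.27 (-3.37 to -1.33). In microglia Rtp4 was at 11, 31.6 and 17.8 CPM, and ULI lay above control at 1.52 (1.0 to 2.05). Rtp4 overlaps a readthrough transcript on its own strand, Gm45338, and Masp1 on the other strand.

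Ifitm3 was abundant in the classes of the vessel wall and the ventricle lining. It was at 344, 255 and 253 CPM in mural cells, 228, 211 and 253 in ependymal cells and 254, 628 and 420 in endothelial cells, but at most 4.63 CPM in the 4 glial classes of the astrocyte and oligodendrocyte lines. Perivascular macrophages had 274 (242 to 309), 138 (111 to 170) and 151 CPM (116 to 194), so control was the high library, whereas in endothelial cells control was the low one. Endothelial Ifitm3 in ULI was 2.47 times the control level, from 172 UMIs in 27 of 104 barcodes with at most 23 in any. Microglia had 6.16, 19.2 and 10.7 CPM, and ULI lay above control at a log2 ratio of 1.64 (0.95 to 2.35).

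Stat2 was the gene of the 10 with the most barcodes. It was found in 711, 418 and 381 barcodes, no barcode held more than 11 of its UMIs, and none of the 9 classes compared was without it in any library. In microglia it was at 49.6 (43.8 to 56.0), 69.5 (58.9 to 81.5) and 70.2 CPM (55.6 to 87.5), in perivascular macrophages at 107, 139 and 141 and in endothelial cells at 58.4, 113 and 104. In microglia its log2 ratio to control was 0.49 (0.19 to 0.78) for ULI and 0.50 (0.12 to 0.87) for ULC, above 0 on both sides. In astrocytes and oligodendrocyte precursors ULI was instead lower than control, with 17.0 against 38.5 CPM and 29.0 against 64.7 CPM of Stat2, at log2 ratios of -1.18 (-2.32 to -0.15) and -1.16 (-1.76 to -0.57).

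A difference was counted where the ratio of 2 libraries was at least 2-fold and its counting interval did not hold 1, among genes whose UMIs in both libraries summed to at least 20. In ULI microglia 9 of the 10 genes were higher than in control by this measure, all but Stat2, and 0 were lower. Of all 11093 genes counted there, 6.72% were higher and 11.4% lower. Since the genes were chosen on this contrast, nothing is read from that. With all barcodes of at least 3 of the 8 genes left out of both libraries, 2 genes were higher. In ULC microglia 1 of 7 counted genes was higher, Oasl2, and 0 were lower (all genes 12.6% higher and 6.60% lower).

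**Figure D2:**
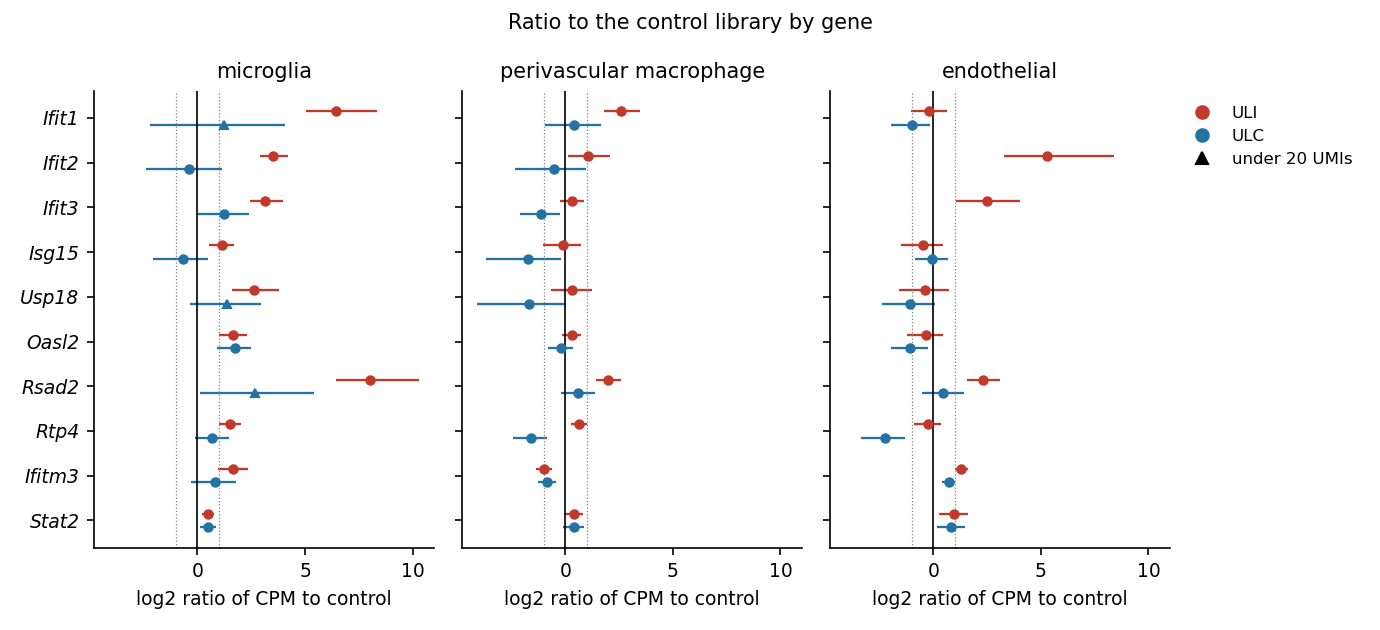
Log2 ratio of CPM to the control library for each of the 10 genes in microglia, perivascular macrophages and endothelial cells, for ULI and ULC, with exact binomial 95% intervals; dotted lines mark 2-fold, triangles mark genes with under 20 UMIs, and Ifit2 and Ifit3, with 0 ULC UMIs in endothelial cells, have no ULC point there. In microglia the ULI points lie between 0.49 (Stat2) and 8.01 (Rsad2).

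In ULI perivascular macrophages 3 of 10 genes were higher, Ifit1, Ifit2 and Rsad2, and 0 were lower (all genes 6.64% and 11.3%). Without the top barcodes none of these 3 passed, and the log2 ratios of Ifit1 and Rsad2 were 0.34 and 0.04. In ULC perivascular macrophages 0 were higher and 3 of 10 were lower, Ifit3, Isg15 and Rtp4 (10.2% and 10.8%). In ULI endothelial cells 4 of 10 were higher, Ifit2, Ifit3, Rsad2 and Ifitm3, and 0 lower (6.40% and 10.9%), and 2 were higher without the top barcodes. In ULC endothelial cells 0 were higher and 2 of 8 lower, Oasl2 and Rtp4 (10.3% and 9.45%). The comparisons of ULI and ULC share the control library, so they are set side by side only.

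A few barcodes held most of these UMIs in ULI microglia. The barcode with the most held 338 of the 840 UMIs of the 8 genes (40.2%), which was 6.16% of all its own UMIs, and the top 5 held 69.6%. In control microglia the top barcode held 22 of 211 UMIs (10.4%), and in ULC 15 of 78 (19.2%). In perivascular macrophages of ULI 1 barcode held 170 of 477 UMIs (35.6%), against 15 of 400 (3.75%) in control and 26 of 109 (23.9%) in ULC. In endothelial cells the top barcode held 3.23% in control, 19.8% in ULI and 17.4% in ULC. The share of the top barcode was thus highest in ULI in all 3 of these classes. In each of the other classes compared, control or ULC had the highest share. It was 14.9%, 10.6% and 14.3% in mural cells, 42.3%, 28.9% and 77.3% in ependymal cells and 12.5%, 17.7% and 70% in astrocytes (control, ULI and ULC).

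**Figure D3:**
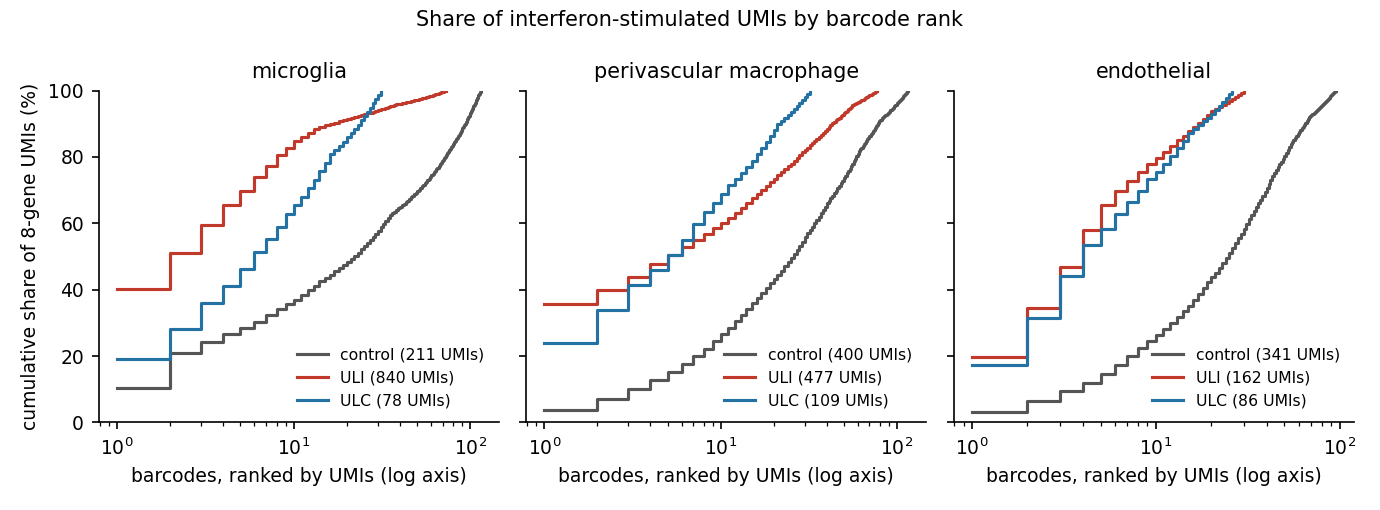
Cumulative share (percent) of the UMIs of the 8 genes held by the barcodes with the most of them, against barcode rank, in microglia, perivascular macrophages and endothelial cells, with 1 line per library. In ULI microglia the first barcode holds 40.2% and the first 5 hold 69.6%, while in control microglia the first 5 hold 28.4%.

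Barcodes with UMIs of at least 3 of the 8 genes were counted as member-rich. In microglia there were 3 of 1715 in control (0.17%, 0.04 to 0.51), 13 of 907 in ULI (1.43%, 0.77 to 2.44) and 3 of 482 in ULC (0.62%, 0.13 to 1.81). The ULI interval lay above that of control and overlapped that of ULC. When every barcode was thinned to 500 UMIs, which left out the shallower ones, the counts were 0 of 1709, 7 of 898 and 0 of 455. At 1000 UMIs they were 3 of 1596 (0.19%, 0.04 to 0.55), 9 of 770 (1.17%, 0.54 to 2.21) and 0 of 357. The control and ULI intervals then overlapped. Perivascular macrophages had 26 of 294 (8.84%), 14 of 246 (5.69%) and 4 of 174 (2.30%), and endothelial cells 26 of 163 (15.95%), 7 of 104 (6.73%) and 3 of 143 (2.10%), so in both classes control had the highest share. After thinning to 500 UMIs the counts were 1 of 294, 6 of 244 and 1 of 171 in perivascular macrophages and 0 of 163, 2 of 103 and 1 of 141 in endothelial cells. At 1000 UMIs they were 5 of 270, 6 of 224 and 2 of 140 in perivascular macrophages and 1 of 148, 0 of 83 and 0 of 102 in endothelial cells. Mature oligodendrocytes, a class with low levels, had 3 of 702, 1 of 566 and 0 of 633 member-rich barcodes at medians of 19409, 1257 and 749 UMIs, and 0 in each library after thinning. The median depth of control endothelial cells, 4252 UMIs, was above the 2044 of ULI and 1884 of ULC, whereas microglia had medians of 3066, 2236 and 2360. Depth and library cannot be told apart in the unthinned shares.

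**Figure D4:**
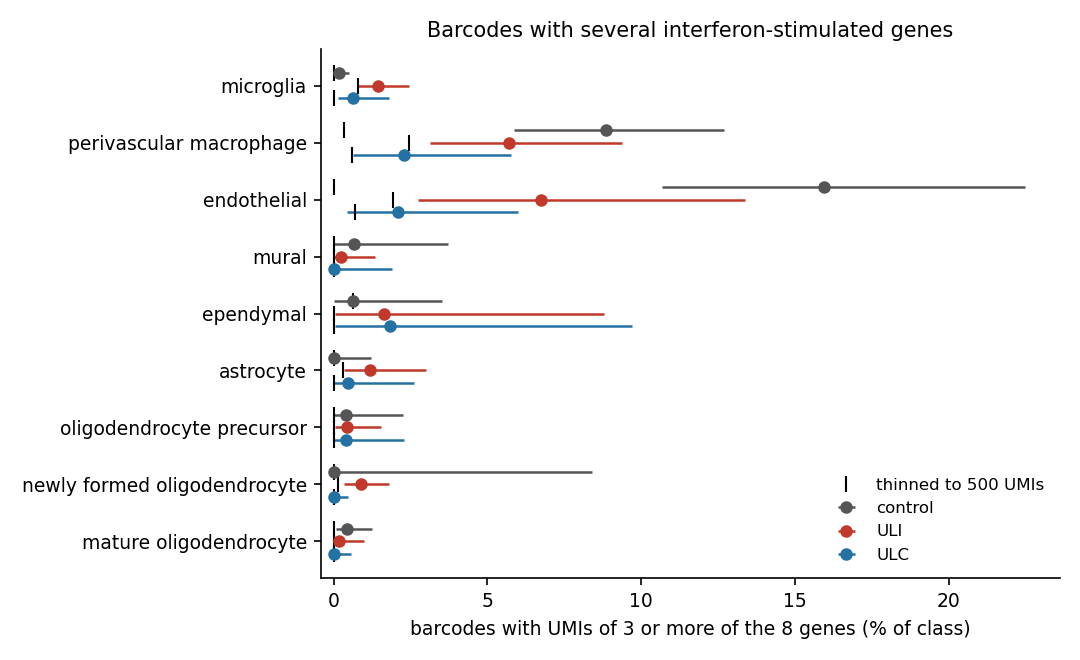
Share of barcodes (percent) with UMIs of at least 3 of the 8 genes, by class and library, with exact binomial 95% intervals; black ticks give the share after thinning every barcode to 500 UMIs. Among the 9 classes, control endothelial cells stand highest unthinned at 15.95%, and ULI perivascular macrophages stand highest thinned at 2.46%.

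The 13 member-rich barcodes of ULI microglia held 735 of the 840 UMIs (87.5%), in 2.0% of the UMIs of the class. With them left out, the 8-gene level was 29.9 (25.5 to 34.9), 49 (40.1 to 59.3) and 44.9 CPM (33.3 to 59.1) in the microglia of control, ULI and ULC. The ULI and ULC intervals then overlapped, and that of ULI still lay above control. The concentration was not alike for the 10 genes. The 13 barcodes held 97.2% of the ULI microglial UMIs of Ifit1, 95.3% of Rsad2, 94.9% of Ifit2 and 89.0% of Ifit3, but 56.5% of Rtp4, 41.3% of Oasl2 and 14.5% of Stat2. Of the 13, 10 were in cluster 9 (10 of 485 ULI barcodes) and 3 in cluster 0 (3 of 418).

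Summed over these 13 barcodes, microglial markers were the highest of the 7 marker lists checked, but single barcodes differed. Monocyte markers were not among these lists. The 8 microglial markers summed to 291 UMIs or 6655 CPM (5912 to 7465), lower than the 12127 CPM of the other 894 ULI microglia. The 7 markers of perivascular macrophages and the 8 of astrocytes had 0 UMIs, endothelial markers 2 and mature oligodendrocyte markers 7. None of the 13 was called a doublet. In 1 of them, with 1491 UMIs in all and 28 of the 8 genes, no microglial marker was found. The barcode with 338 UMIs of the 8 genes had 7 microglial marker UMIs of 5490 in all. Another, with 11 UMIs of the 8 genes, had 4 of 3359. The identity of these barcodes was not tested further.

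Ifnb1, which encodes interferon beta, was found in the same barcodes. ULI microglia had 19 Ifnb1 UMIs in 5 barcodes, with 7, 5, 5, 1 and 1, and all 5 were among the 13. The other 894 ULI microglia had 0, which allows a share of up to 0.336%. A further 9 UMIs were in the perivascular macrophage barcode that held 170 UMIs of the 8 genes. Control microglia had 3 barcodes with 1 Ifnb1 UMI and ULC microglia 1, and these held at most 1 of the 8 genes. The barcode with the most Rsad2 had 1 Ifnb1 UMI, while 7, 5 and 5 were in barcodes with 71, 90 and 36 UMIs of the 8 genes, so the counts of Ifnb1 and of the 8 genes did not run in the same order. Cxcl10, a chemokine for T cells, had 1470 UMIs in ULI microglia, of which 10 of the 13 barcodes held 580 (39.5%). Ccl5, another T cell chemokine, had 127, of which 3 of the 13 held 106 (83.5%).

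Genes outside the 10 that led in the member-rich microglia of the 3 libraries together, by ratio to the other microglia, were Cxcl9, Ccl5, Oasl1, Acod1, Cmpk2, Mx1, Plac8, Slfn5, Ifi204 and Gbp2. Of the 19 barcodes 13 were from ULI, so differences between libraries also enter this order. Acod1, which makes itaconate, and Plac8 were not on the pathway lists. Plac8 was on the monocyte marker list used to name clusters. It was at 308 CPM in the member-rich microglia, from 6 of the 19 barcodes, beside 6.16 CPM in the others. All 35 Cxcl9 UMIs came from 1 control barcode, while Slfn5 (63 UMIs) and Ifi204 (51 UMIs) came from 11 of 19 barcodes each. Within the ULI library, 39 of 73 counted pathway genes were at least 2-fold higher in the 13 barcodes than in the other microglia, where 6.93% of all genes were. By list these were 6 of 8 genes of RNA and virus restriction, 14 of 21 other induced genes, 5 of 6 GTPases, 4 of 11 sensors and adaptors, 3 of 3 chemokines, 3 of 5 of signal transduction, 2 of 2 of ISG15 conjugation, 2 of 7 of antigen presentation, 0 of 5 receptors and 0 of 5 interferon regulatory factors. Lower were 3 of the 73, of which 2 were receptors and 1 was of the other induced genes. Of all genes, 263 of 8062 were lower, a share close to that one, so nothing is read from it. Of the 13 barcodes 10 were in cluster 9, and this contrast was not made within a cluster, so the part of the cluster was not tested. A gene was counted by its UMIs in the 13 and in the other microglia together. Some genes may thus have reached the minimum for counting mainly through the 13. Oasl1 was at 440 CPM in the 19 member-rich microglia of the 3 libraries and at 1.16 CPM in the others. The count of 39 of 73 and the counts by list are therefore a description.

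**Figure D5:**
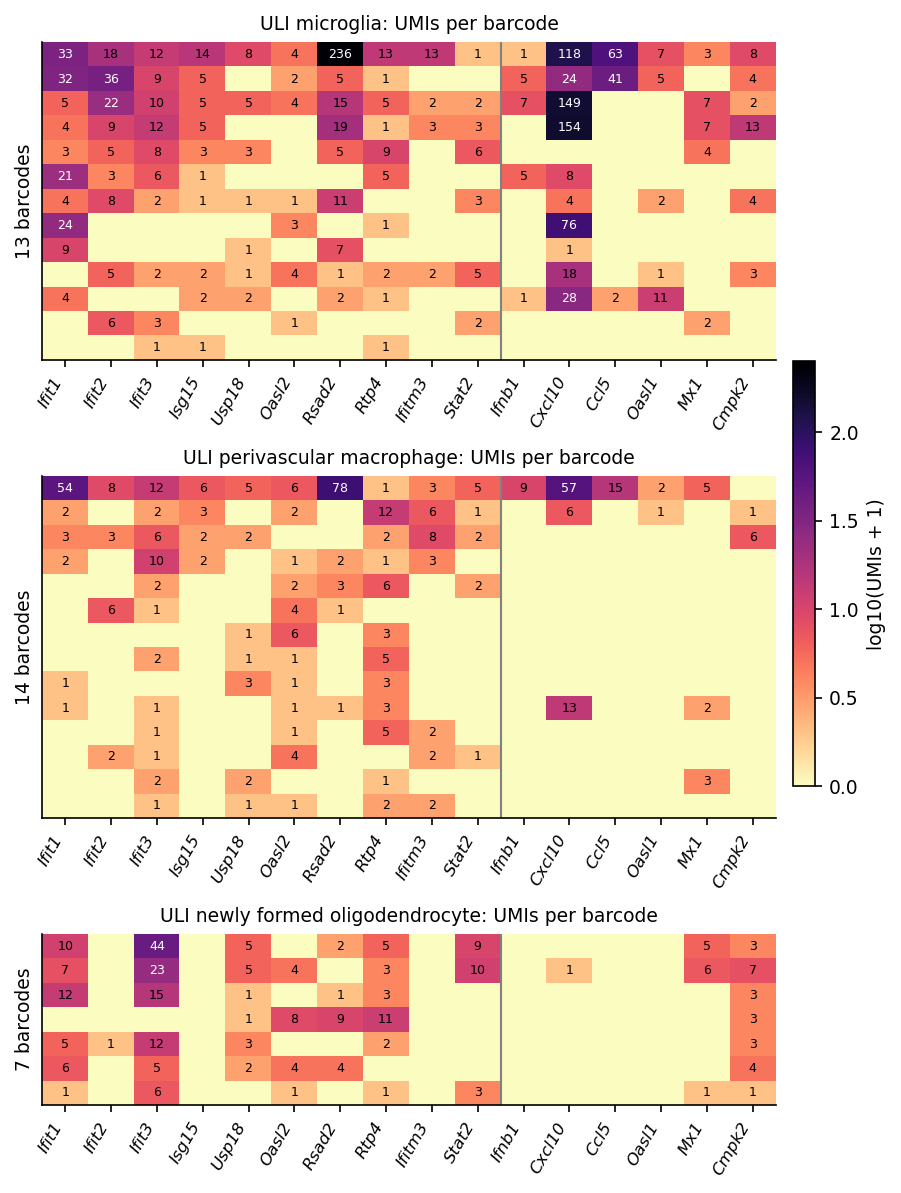
UMIs of the 10 genes and, right of the line, of Ifnb1, Cxcl10, Ccl5, Oasl1, Mx1 and Cmpk2 in each member-rich ULI barcode, 1 row per barcode, for microglia, perivascular macrophages and newly formed oligodendrocytes, coloured by log10(UMIs + 1). Ifit2 is found in 9 and Cxcl10 in 10 of the 13 microglial rows, while the 7 oligodendrocyte rows hold Ifit3 in 6 and Cmpk2 in all 7, with 1 Ifit2 UMI and no Isg15 or Ifitm3.

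Newly formed oligodendrocytes had 7 member-rich barcodes of 800 in ULI (0.88%, 0.35 to 1.79) and 0 of 42 and 0 of 761 in control and ULC. Thinned to 500 UMIs, 1 of 785 was left in ULI and 0 of 42 and 0 of 753 in the others. The 7 had a median of 11552 UMIs, where the class had medians of 8625.5, 4023.5 and 676. All 7 were in cluster 12, to which 35 control barcodes, 471 ULI barcodes and 5 ULC barcodes belonged, so control and ULC offered few barcodes to compare. They held 222 of the 311 ULI UMIs of the 8 genes. Their own class markers, among them Gpr17 and Enpp6, summed to 11374 CPM (10610 to 12178), beside 10991 in the other 793 barcodes. Mature oligodendrocyte markers were higher than in those, at 6620 CPM (6040 to 7240) beside 4985 (4919 to 5051). Microglial markers had 1 UMI and perivascular macrophage markers 1. Their set of genes differed from that of the microglia. Ifit3 had 105 UMIs in 6 of the 7 and Cmpk2, a mitochondrial nucleotide kinase, was found in all 7, but Isg15 and Ifitm3 had 0 UMIs, Ifit2 had 1, Ifnb1 had 0 and Cxcl10 had 1.

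The member-rich barcodes of the other classes were of more than 1 kind. In the 26 of control endothelial cells, 1 of 51 counted pathway genes was at least 2-fold higher than in the other endothelial barcodes (all genes 3.78%), and the 8 endothelial markers were at 33177 CPM beside 32058. In the 7 of ULI endothelial cells, 10 of 28 pathway genes were (9.57%), with 3 of 4 GTPases among them. Their endothelial markers were at 21291 CPM beside 30252, and 2 of the 7 were called doublets. Markers of newly formed oligodendrocytes were at 1107 CPM beside 359, with 38 of the 44 UMIs in 1 barcode, a called doublet, and at 199 CPM (72.9 to 432) without it. In perivascular macrophages 18 of 66 were higher in control (5.18%) and 23 of 57 in ULI (6.68%). Of these, 9 of 21 and 11 of 20 other induced genes and 3 of 6 and 3 of 5 GTPases were higher. Their own markers were at 17509 CPM beside 19025 in control and at 26128 beside 23969 in ULI. In the control member-rich macrophages mature oligodendrocyte markers were at 1678 CPM beside 438 in the others, and 2 of the 26 were called doublets. A called doublet held 143 of the 199 UMIs of these markers, and the other 25 barcodes were at 537 CPM (406 to 698). The part of these markers in the result was not tested. As in microglia, genes may have been counted mainly through the member-rich barcodes, so these counts of pathway genes are a description.

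Of the other genes of the interferon pathway, grouped in 11 lists, 105 were in the table. In ULI microglia 14 of 84 counted genes were at least 2-fold higher than in control (all genes 6.72%). Lower were 6, Tyk2, Socs1, Ly6e, Psmb9, Tapbp and Cxcl9 (all genes 11.4%). In ULC 11 of 81 were higher and 5 lower, near the shares of all genes (12.6% and 6.60%). Of the ligands, Ifnb1 was the 1 gene counted, at a log2 ratio of 3.96 (2.19 to 6.36) from 19 against 3 UMIs. It reached the minimum for counting mainly through its ULI UMIs. The 19 ULI UMIs came from 5 barcodes, with 7 in 1 of them, and the 3 control UMIs came from 3 barcodes. The interval treats UMIs of the same barcode as separate, so it is too narrow to judge the ratio by. Ifna2 had 0, 2 and 0 UMIs. None of the 5 counted receptor genes passed. Ifngr1 and Ifngr2, the chains of the interferon gamma receptor, were at 435, 317 and 301 CPM and at 144, 87.4 and 141 CPM. Among signalling genes Jak1 was at 328, 474 and 409 CPM and Socs3, a feedback inhibitor, at 129, 148 and 124. Of the regulatory factors Irf8, needed for microglia themselves, was at 396, 295 and 399 CPM and Irf2 at 289, 243 and 222. Of the 5 regulatory factors counted, 0 passed on either side.

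Among sensors, Dhx58, which encodes the RNA helicase LGP2, was higher on both sides (4.66, 9.61 and 10.7 CPM). Tlr7, an endosomal RNA receptor, was at 193, 347 and 238 CPM and Tmem173, which encodes the adaptor STING, at 264, 199 and 162, and neither passed. Of the restriction genes Oasl1, Mx1 and Cmpk2 were higher in ULI, at log2 ratios of 3.71, 1.93 and 3.17, whereas Samhd1 (91.8, 99.7 and 74.6 CPM) and Apobec3 (203, 273 and 199 CPM) did not pass. Herc6 and Trim25, of the list of ISG15 conjugation, were at 26.9, 22.0 and 24.9 CPM and at 58.8, 71.8 and 110 CPM without passing. The GTPase gene Gbp3 was higher on both sides (20.9, 71.8 and 44.4 CPM) and Gbp7 in ULI (167, 334 and 291 CPM), while Irgm1 was at 57.1, 56.3 and 46.2.

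Of the 7 pathway genes that were higher on both sides, 4 were of the list of other induced genes. Ifi207 was at 6.53, 64.1 and 119 CPM, Ifi204 at 7.65, 51.7 and 34.7, Slfn2 at 50.9, 132 and 395 and Slfn5 at 16.4, 48.5 and 33.8. Ifi207 and Slfn2 were thus highest in ULC, unlike the 10 genes other than Oasl2 and Stat2. Trim30a was at 172, 212 and 201 CPM and did not pass. Ly6e was at 743, 173 and 1223 CPM, lowest in ULI, and it was lowest in ULI also in perivascular macrophages (1269, 166 and 1490) and endothelial cells (1797, 354 and 3129). Of antigen presentation, B2m was at 2725, 2673 and 2147 CPM and H2-D1 at 833, 785 and 1204, whereas Tapbp, which encodes tapasin, was lower on both sides (194, 67.7 and 90.6 CPM). Among chemokines Cxcl10 was at 138, 673 and 284 CPM, higher on both sides, and Ccl12 was higher in ULI (176, 377 and 116). Cxcl9 had 36 UMIs in control and 0 in ULI and ULC, and 35 of the 36 were in 1 barcode.

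In the vascular classes the counts of pathway genes stood as follows. In perivascular macrophages 5 of 76 counted genes were higher and 8 lower in ULI (all genes 6.64% and 11.3%), and 7 of 76 were higher and 9 lower in ULC (10.2% and 10.8%). Endothelial cells had 3 of 55 higher and 7 lower in ULI (6.40% and 10.9%), and 6 of 59 higher and 13 lower in ULC (10.3% and 9.45%). Mural cells had 2 of 44 higher and 2 lower in ULI (7.47% and 7.59%), and 2 of 34 higher and 6 lower in ULC (12.3% and 7.69%). Cxcl10 was higher on both sides in perivascular macrophages (36.3, 282 and 202 CPM). Ifnar1, a chain of the type I interferon receptor, was lower on both sides in endothelial cells.

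The genes whose levels over the 27 combinations of class and library were most like the mean pattern of the 10, among 11851 genes with at least 200 UMIs, were Ifi47, Mis18a, Sp100, Slc40a1, St8sia4, Il10rb, Smagp, Cxcl1, Samhd1 and Bst2, at Pearson r between 0.84 and 0.88. Of these, Ifi47, Sp100, Il10rb, Samhd1 and Bst2 were on the pathway lists. Within each library all 10 were higher in perivascular macrophages than in microglia. Ifi47 was at 1.68, 1.37 and 0 CPM in microglia but at 48.8, 58.9 and 39.0 in perivascular macrophages, and Bst2, which encodes tetherin, was at 39.2, 52.2 and 24.9 beside 282, 189 and 144. In endothelial cells Bst2 was at 106, 36.5 and 60.7 CPM, in ULI below the level of microglia. The 27 points share libraries, depth and the pool of free RNA, so r is a description.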

How the data were processed

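Single-cell RNA counts of 3 libraries of the mouse medial vestibular nucleus (control, ULI and ULC, 1 pooled library each) were analysed. The authors deposited 1 table of UMI counts per gene and barcode. The submitters' processing notes name CASAVA 1.8, UMI-tools, Seurat and the build mm10. From these counts, barcodes with at least 200 genes were kept (13964 of 14876, with 57216827 UMIs in all before this filter). The kept barcodes were scaled to 10000 UMIs, logged and clustered in scanpy 1.11.5 (2000 variable genes without the interferon pathway genes, 30 components, 20 neighbours, Leiden resolution 1), and clusters were named from marker lists. No doublets were left out, but Scrublet scores were used in an alternative. Its automatic threshold marked 44 control, 4 ULI and 1 ULC barcodes, so that the top 5% of scores (259 and 239) was taken for ULI and ULC.

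CPM came from the summed UMIs of each class in each library. With 1 library per group there was no test and no replicate error. Poisson and binomial 95% intervals were exact (scipy 1.17.1) and cover counting error only, and a count of 0 was set to a floor of 3. TMM factors (edgeR 4.0.16) and median-of-ratios factors (DESeq2 1.42.0) were used only as alternative scalings, with factors close to 1. Patterns over classes were compared as log2 CPM with a pseudocount of 10. The intervals and ratios were tested on simulated data.

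The 10 genes and the gene lists were chosen with earlier results of these data known. The rule named all 10 genes, the 2 genes of each pathway list with the most microglial UMIs and those past 2-fold in microglia on both sides, the 10 genes most like the 10 and the 10 leading genes of member-rich microglia. Other genes were named after their values were seen, among them Ifnb1, Oasl1, Mx1, Cmpk2, Ccl5, Ccl12, Gbp7, Ly6e, Ifnar1 and the genes listed as lower in ULI microglia.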

Additional observations from a re-analysis of the deposited data

Results flagged for a closer look

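Several of the 10 genes lay on opposite sides of control in different classes of the same library, with counting intervals that did not hold 0. With 1 library per group these differences between classes were not tested. Oasl2 in ULC had a log2 ratio to control of 1.73 (0.93 to 2.50) in microglia and -1.06 (-1.98 to -0.23) in endothelial cells.

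Ifitm3 in ULI was at 1.64 in microglia and 1.30 in endothelial cells, but at -0.99 in perivascular macrophages and -0.43 in mural cells. In ULC Ifitm3 was at 0.72 in endothelial cells, -0.86 in perivascular macrophages and -0.44 in mural cells. Stat2 in ULI was at 0.49 in microglia and 0.95 in endothelial cells, but at -1.18 in astrocytes and -1.16 in oligodendrocyte precursors.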

How the results depend on the processing

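No paired analysis was possible because each group is 1 library. The values here are for the sum of the 10 genes, as log2 ratios to control unless a count or CPM is named, and alternatives that left out 5 barcodes, or all barcodes with at least 3 of the 8 genes (member-rich), or that stayed within 1 cluster were chosen after seeing the data. Except where single barcodes were left out, the cause of a shift was not tested.

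The level in ULI microglia, 473 CPM, was 513 on totals without mitochondrial, ribosomal protein, choroid plexus and haemoglobin genes, 362 as a mean over barcodes, 313 without the top barcode, 194 without 5 and 120 without member-rich ones. The ratio in ULI microglia, 2.31, was 1.81 without the top barcode, 1.28 without 5, 0.55 without member-rich ones, 1.30 within cluster 0 and 1.76 within cluster 9, and in ULC 0.66 became 0.39 without 5. In ULI perivascular macrophages 0.35 turned to -0.048 without the top barcode, -0.26 without 5 and -0.21 without member-rich ones, and was 0.75 without Ifitm3. In ULC -0.51 became -0.90 without 5. In endothelial cells the ULI ratio of 0.87 was 0.57 without Ifitm3, 0.28 without 5 and 0.42 without member-rich ones, and the ULC ratio of 0.03 was -0.56 without Ifitm3 and -0.24 without 5. In ependymal cells the ULI ratio turned to -0.23 without 5, and in astrocytes to -0.14 without 5 and -0.28 without member-rich ones.

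Of the 9 genes higher in ULI microglia, 5 passed 4-fold, and 2 were higher without member-rich barcodes. In ULC microglia the count of 1 was 0 at 4-fold and 2 with a minimum of 1 UMI, TMM factors, at least 500 genes, at most 20% mitochondrial UMIs, resolution 2, interferon genes kept for clustering or no top barcode. In perivascular macrophages the 3 higher in ULI were 1 at 4-fold and 0 without the top barcode, 5 barcodes or member-rich ones, and the 3 lower in ULC were 0 at 4-fold and 1 without member-rich ones. In endothelial cells the 4 higher in ULI were 2 with a minimum of 50 UMIs, without doublets or without the top barcode, 1 without 5 and 0 without member-rich ones. There the 2 lower in ULC were 1 at 4-fold, with TMM or median-of-ratios factors, and 5 without 5 barcodes. The member-rich share in control microglia, 0.17%, was 0.52% at 2 of 8 genes and 0% thinned to 500 UMIs, and that of ULC, 0.62%, was 0% thinned to 500 or 1000. The top barcode's 40.2% of ULI microglial UMIs became 69.6% for 5 barcodes.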

Other observations

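Classes with under 30 barcodes in some library were not compared, and their values are given alone. For the 8 genes, mixed leukocytes (51, 39 and 23 barcodes) were at 141, 701 and 79.3 CPM in control, ULI and ULC from 24, 48 and 3 UMIs, and 2 of the 39 ULI barcodes were member-rich. Neutrophils (11, 15 and 12 barcodes) were at 1705, 88.2 and 809 CPM from 22, 3 and 13 UMIs. Leptomeningeal fibroblasts (27, 26 and 29 barcodes) were at 151, 419 and 19.2 CPM from 23, 25 and 1 UMIs.

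Choroid plexus epithelium (27, 264 and 1100 barcodes) was at 45.2, 14.7 and 36.2 CPM, and in ULC it held 33 of the 71 Ifit1 UMIs of the library (46.5%). Cxcl1, a neutrophil chemokine with a pattern over classes like that of the 10 genes, was at 86.2, 598 and 787 CPM in perivascular macrophages.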
